A study of Rattus norvegicus with 16 samples.

Results

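The comparison described here is whether the effect of a maternal low protein diet on the ventral prostate of rats (Rattus norvegicus) differed between weaning age and old age. The value of each gene is its interaction, the log2 difference between diets at postnatal day (PND) 540 minus the log2 difference between diets at PND21. A negative interaction means that the diet effect was more negative, or less positive, at PND540. All 16 of the 16 RNA-seq libraries entered the fit. Dams received a normal diet with 17% protein (CTR) or one with 6% protein during gestation and lactation (GLLP), and the gland of the offspring was taken at PND21 (4 CTR and 3 GLLP libraries) or PND540 (5 CTR and 4 GLLP libraries). The labels do not tie offspring to litters, and the p-values therefore rest on the spread among these libraries alone.

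Gene symbols found in both count tables numbered 19709, out of 33195 gene names in either table. Of these, 11442 had a mean of at least 1 CPM (counts scaled to library size) in at least 1 group of each table and were tested. The total of a library was 30529776 to 39161666 counts in the PND21 table and 28748604 to 37587255 in the PND540 table, and the 5 luminal epithelial markers of the gland were detected in every group. CTR PND540 replicate 5 stood apart: its median correlation with the other libraries of its age was 0.805, against 0.954 to 0.984 for each of the other libraries, so the interactions and list medians that it moved by over 1.5 times, or whose sign it turned, are also given without it. Mitochondrially encoded genes took 0.282% of the counts of CTR PND21 replicate 1 and 3.66 to 5.02% of those of the other PND21 libraries; its median correlation was 0.983, and without it 1 gene, Mylpf, was called. The biological coefficient of variation of the fit was 33.9% with all libraries and 24.8% without CTR PND540 replicate 5. The tables differ in the genes they name, so a level at PND21 and a level at PND540 may differ by how a gene was counted; the interaction compares differences taken within each table.

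The ventral prostate is an androgen-dependent secretory gland. Its luminal cells fold and export large amounts of protein through the endoplasmic reticulum (ER), over a layer of basal cells and a sheath of smooth muscle. Striated muscle, with its own set of contractile proteins, lies close to the gland around the urethra. A low protein supply in early life is known to restrict growth of the offspring, and amino acid supply is known to govern ribosome production and secretory protein synthesis.

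The interaction was past the threshold (adjusted p under 0.05) for 2 genes, Mylpf and Eno3, both with a lower diet effect at PND540 than at PND21. This was 0.0175% of the genes tested. No gene passed in the other direction with edgeR, DESeq2 or limma voom. In the same fit the diet effect passed at PND21 for the same 2 genes (0.0175%), both up in GLLP, and for no gene at PND540, where 430 genes (3.76%) had an unadjusted p under 0.05, against 307 (2.68%) at PND21. DESeq2 called 10 genes at PND21 and 2 at PND540, and limma voom 112 and 0. An unadjusted p under 0.05 was reached by 531 genes (4.64%), 167 of them positive (1.46%) and 364 negative (3.18%). With CTR PND540 replicate 5 left out, the same test, edgeR's quasi-likelihood test with Benjamini-Hochberg adjustment, again gave 2 negative calls and no positive one among 11440 genes (0.0175%), and the calls were again Mylpf and Eno3. The number with an unadjusted p under 0.05 then was 805 (7.04%), with 469 positive (4.1%) and 336 negative (2.94%).

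Promoter sequences, from 250 bases before to 50 bases after the annotated start, are shown for 4 genes described below. The called gene Mylpf, and Tnnt3, had no entry among the promoter sequences used and are not shown. Eno3 and Casq1 are muscle genes with negative interactions, of which Eno3 alone was called. Dnajb9 and Edem1 are the ER genes with the smallest p in the opposite direction, and neither was called. They are RefSeq sequences of the GRCr8 assembly, matched by symbol; 8939 of the 11442 tested genes had an entry. That assembly is not the build named for these files, and the coordinates belong to GRCr8 alone. They are written 5′ to 3′ on the strand of the gene. In the muscle genes capitals mark CAGCTG, an E-box of the kind bound by myogenic factors; it reads the same on both strands and stood in 15.1% of the 27457 promoters of 300 bases. In the ER genes capitals mark CCACG and CCAAT on either strand, the parts of the ER stress response element though not at its spacing here, which stood in 32.5% and 37.7% of those promoters; the motifs do not overlap here. A match is a description of letters only.
Eno3 (chr10:55868936-55869235, + strand): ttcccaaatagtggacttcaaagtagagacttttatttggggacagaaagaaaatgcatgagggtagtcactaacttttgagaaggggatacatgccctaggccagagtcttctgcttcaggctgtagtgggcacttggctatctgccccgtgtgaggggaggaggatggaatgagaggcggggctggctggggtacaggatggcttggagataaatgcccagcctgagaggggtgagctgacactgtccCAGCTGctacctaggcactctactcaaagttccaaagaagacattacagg
Casq1 (chr13:87212661-87212960, - strand): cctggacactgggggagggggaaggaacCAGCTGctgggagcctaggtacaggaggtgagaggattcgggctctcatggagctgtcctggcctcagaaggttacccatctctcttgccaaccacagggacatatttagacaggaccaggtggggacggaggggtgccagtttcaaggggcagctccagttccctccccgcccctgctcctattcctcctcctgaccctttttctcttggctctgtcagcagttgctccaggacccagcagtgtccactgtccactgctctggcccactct
Dnajb9 (chr6:67002002-67002301, - strand): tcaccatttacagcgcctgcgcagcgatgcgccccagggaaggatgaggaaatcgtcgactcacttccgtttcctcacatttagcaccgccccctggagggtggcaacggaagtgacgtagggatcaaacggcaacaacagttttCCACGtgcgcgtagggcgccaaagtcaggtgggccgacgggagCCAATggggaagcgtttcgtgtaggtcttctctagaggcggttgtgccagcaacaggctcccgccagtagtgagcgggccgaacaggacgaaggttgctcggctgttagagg
Edem1 (chr4:143353425-143353724, + strand): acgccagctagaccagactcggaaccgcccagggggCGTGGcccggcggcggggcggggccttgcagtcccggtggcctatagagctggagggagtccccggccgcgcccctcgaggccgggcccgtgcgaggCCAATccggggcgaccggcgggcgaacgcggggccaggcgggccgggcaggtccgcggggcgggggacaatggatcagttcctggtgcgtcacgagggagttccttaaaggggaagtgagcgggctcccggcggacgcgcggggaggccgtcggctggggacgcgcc

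Mylpf encodes the phosphorylatable myosin light chain of fast skeletal muscle. At PND21 it measured 2.95, 2.8, 3.01 and 2.26 CPM in the CTR libraries and 58.7, 36.1 and 51.3 CPM in the GLLP libraries. At PND540 it measured 4.23, 4.53, 4.29, 5.32 and 10.6 CPM in CTR and 4.15, 3.93, 3.84 and 3.66 CPM in GLLP. The GLLP libraries were thus all above the CTR libraries at PND21 and all below them at PND540, and the second separation is narrow. The diet effect was a 17.7-fold rise at PND21 (log2 4.14, SE 0.32, adjusted p = 1.46e-05 by edgeR's quasi-likelihood test) and did not pass at PND540 (log2 -0.57, SE 0.26, adjusted p = 0.732). The interaction was -4.72 on the log2 scale (SE 0.41, adjusted p = 8.33e-05), a 26.3-fold ratio between the diet effects. Leaving out CTR PND540 replicate 5, the highest of its group at 10.6 CPM, gave Mylpf an interaction of -4.38 (SE 0.24, adjusted p = 2.31e-07).

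Eno3 encodes beta-enolase, the glycolytic enolase of muscle. In CTR it measured 6.84, 7.35, 6.66 and 6.39 CPM at PND21, against 34.7, 24.5 and 27.3 CPM in GLLP. At PND540 the values were 5.04, 4.59, 4.82, 5.85 and 10.2 CPM in CTR and 4.69, 4.52, 3.02 and 5.25 CPM in GLLP. The groups did not overlap at PND21 and overlapped at PND540. The diet effect of Eno3 at PND21 was a 4.23-fold rise (log2 2.08, SE 0.28, adjusted p = 0.0101), and its interaction was -2.56 (SE 0.37, adjusted p = 0.0283). The interaction was -2.30 (SE 0.26, adjusted p = 0.0017) when CTR PND540 replicate 5 was left out. The call for Eno3 was lost in 11 of the 16 fits that left out 1 library each: the adjusted p was 0.111, 0.0931, 0.116 and 0.123 without CTR PND21 replicates 1 to 4, 0.166, 0.0783 and 0.114 without GLLP PND21 replicates 2 to 4, 0.0786 without CTR PND540 replicate 4, and 0.0917, 0.119 and 0.0544 without GLLP PND540 replicates 1, 2 and 4. The value itself stayed between -2.69 and -2.30 in these fits.

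**Figure D1:**
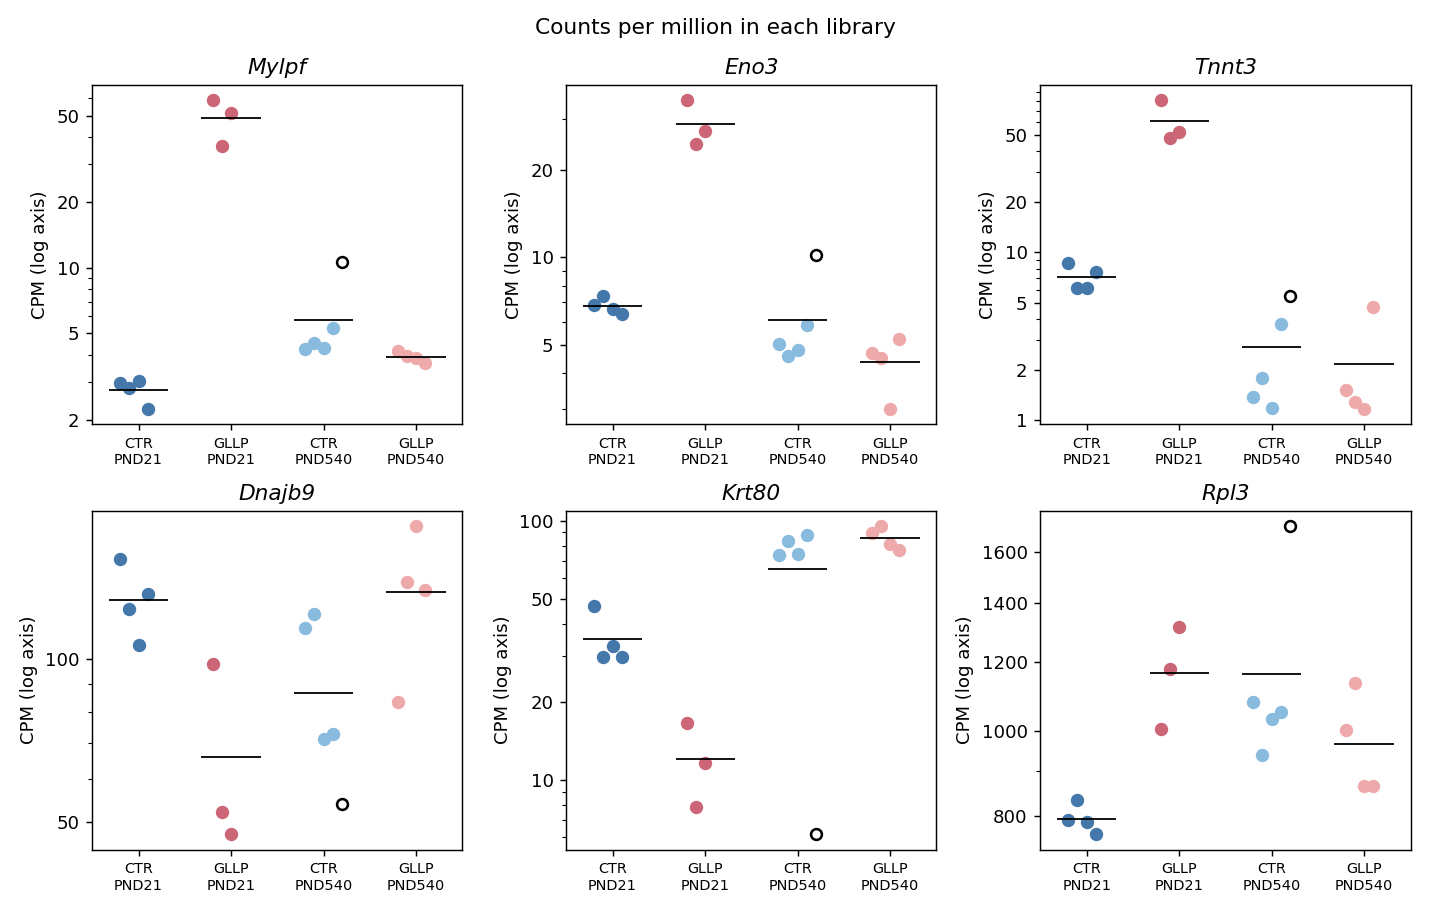
CPM (log axis, a different range in each panel) of 6 genes in each library, by diet and age; bars are group means and the open circle is CTR PND540 replicate 5. In the panels of Mylpf, Eno3 and Tnnt3 the 3 GLLP PND21 libraries stand above all others, and in those of Krt80 and Rpl3 the open circle lies far from the rest of its group.

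Of the 37 genes listed for skeletal muscle contraction, 32 had symbols in both tables and 12 passed the rule on level, which needs 1 CPM at each age. Mylpf was the 1 member called. In 11 of the 12 the interaction was negative, where 50% of all genes tested had a negative value. An unadjusted p under 0.05 was reached by 7, all negative (3.18% of all genes). The median was -1.84 (median over all genes 9.12e-05), and -1.22 without CTR PND540 replicate 5. None of the 12 met the level rule at PND21 through GLLP alone (0 of 12). The diet effect at PND21 was positive in all 12 tested members (48.2% of all genes), with 9 showing GLLP above CTR without overlap (9.7% of all genes did). At PND540 the diet effect was positive in 5 of them and negative in 7 (51.7% and 48.3% of all genes), with a median of -0.27, and 0.09 without CTR PND540 replicate 5.

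Tnnt3, the troponin T of fast muscle, measured 8.67, 6.09, 6.11 and 7.65 CPM in CTR and 80.5, 47.8 and 52.4 CPM in GLLP at PND21. At PND540 Tnnt3 measured 1.37, 1.78, 1.18, 3.76 and 5.48 CPM in CTR and 1.52, 1.28, 1.17 and 4.69 CPM in GLLP. The GLLP libraries were all higher at PND21, and the groups overlapped at PND540. The interaction of Tnnt3 was -3.40 (SE 0.73) and did not pass the threshold (edgeR adjusted p = 0.707). Casq1, the calcium buffer of the sarcoplasmic reticulum, had an interaction of -2.34 (SE 0.65, adjusted p = 0.707) and measured 5.81 to 11.9 CPM in CTR and 27.2 to 48.1 CPM in GLLP at PND21, against 1.97 to 10.8 CPM and 2.36 to 4.49 CPM at PND540. Among the other members, named after their values were seen, skeletal alpha-actin Acta1 had an interaction of -0.45 and the tropomyosin gene Tpm3, which many tissues express, one of 0.02.

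The 5 skeletal muscle markers summed to 305 to 382 CPM in CTR and 812 to 925 CPM in GLLP at PND21, with no overlap. At PND540 they summed to 31.5 to 68.4 CPM in CTR and 27.2 to 95.4 CPM in GLLP, and the groups overlapped. None of the 5 was at 0 in all libraries of a group. Acta1 made up most of each sum. It measured 292 to 374 CPM in CTR and 464 to 603 CPM in GLLP at PND21. At PND540 it measured 29.7 to 66.8 CPM and 24.8 to 89.2 CPM. Myh4, Ckm and Myl1, which did not meet the level rule, averaged 1.32, 0.894 and 0.154 CPM in CTR at PND21. In GLLP at PND21 they averaged 171, 45.9 and 52.6 CPM. The part of muscle tissue carried with the gland in these values was not tested, and in bulk tissue fewer cells of a type and less RNA per cell cannot be told apart. Smooth muscle, which belongs to the gland, had 19 of 19 listed genes tested, with 12 positive and 7 negative interactions (50% of all genes for each sign). The median interaction of the 19 was 0.12 (-0.17 to 0.35 with 1 library left out). The smooth muscle markers summed to 2081 to 2318 CPM in CTR and 2188 to 2562 CPM in GLLP at PND21.

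The level rule left out 20 of the 32 skeletal muscle genes found in both tables: 17 were low at PND540 only and 3 at both ages. Of the 134 genes of a wider catalogue of striated muscle genes that it left out, 67 were low at PND540 only, 66 at both ages and 1 at PND21 only. A wider filter (edgeR's filterByExpr, 14194 genes) called 13 genes, of which 2 met the rule and 11 did not. None of the 11 averaged 1 CPM in either PND540 group, and each had its highest mean in GLLP at PND21. A negative interaction therefore follows from how they entered, and their values are a description that supports nothing further. The fast troponin I gene Tnni2 averaged 0.555 ± 0.0597 CPM (SD, n = 4) in CTR and 30.7 ± 8.62 CPM (SD, n = 3) in GLLP at PND21, and 0.291 ± 0.185 CPM (SD, n = 5) against 0.2 ± 0.0833 CPM (SD, n = 4) at PND540, where it rested on 49 and 26 counts in all. The muscle creatine kinase gene Ckm averaged 0.894 and 45.9 CPM at PND21, and 0.772 and 0.615 CPM at PND540 from 134 and 80 counts. The light chain gene Myl1 rested on 29 and 25 counts at PND540, so the diet effect there had little precision in any of these genes. The others were the muscle genes Actn3, Eef1a2, Mybpc1, Myh3, Actn2, Cox6a2 and Myh4, and Them5, outside the catalogue, with 14 counts over the CTR libraries and 0 over the GLLP libraries at PND540.

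The diet effects at the 2 ages had opposite signs in 7353 of the 11442 genes (64.3%), and in 6698 (58.5%) without CTR PND540 replicate 5. Across genes Pearson's correlation between them was -0.27 and Spearman's -0.344, and without that library -0.0943 and -0.168. These describe genes of the same libraries, which are not independent points. At PND21, 1110 genes (9.7%) had all GLLP values above all CTR values and 892 (7.8%) the reverse. At PND540 the counts were 11 (0.0961%) and 28 (0.245%). With 4 against 3 libraries at one age and 5 against 4 at the other, these shares are not comparable between ages.

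**Figure D2:**
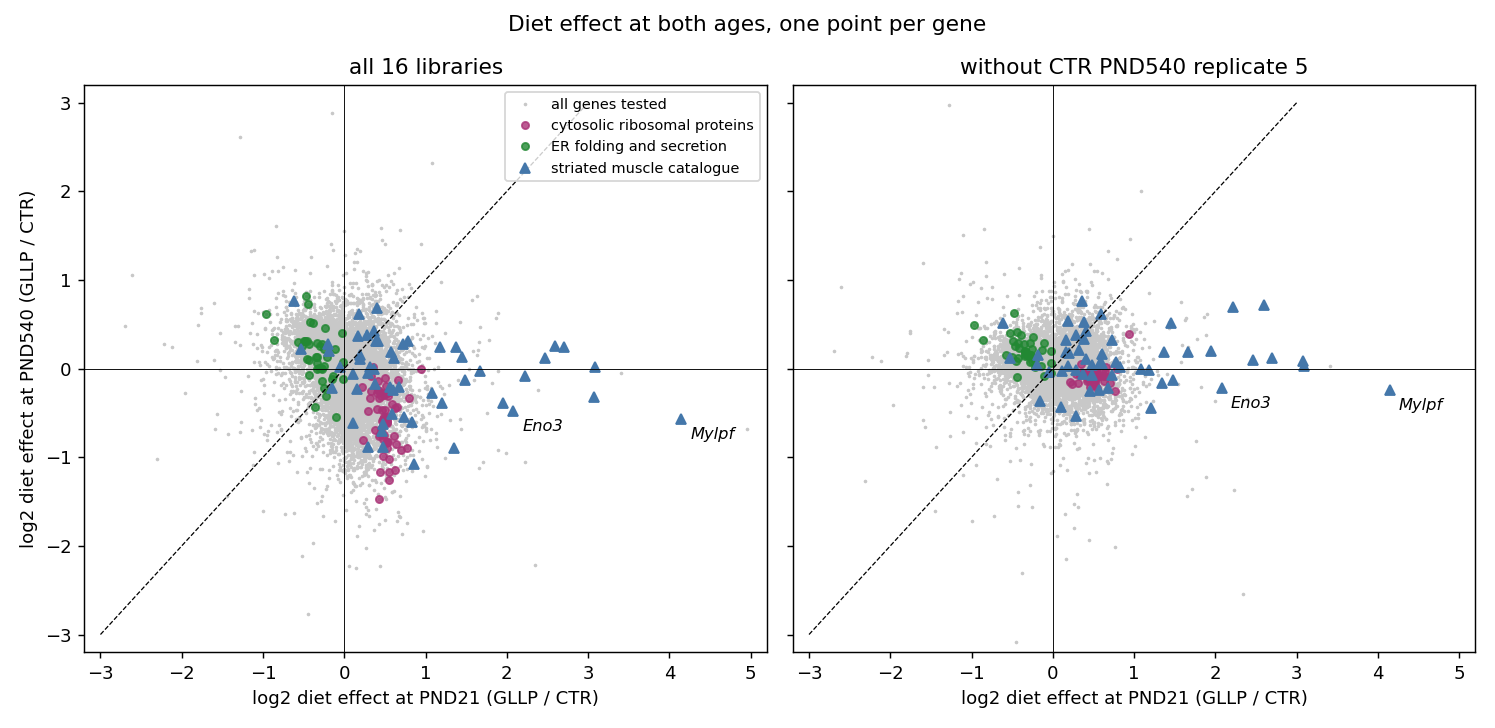
Log2 diet effect (GLLP over CTR) at PND540 against that at PND21, 1 point per gene tested, with all libraries (left) and without CTR PND540 replicate 5 (right); the dashed line marks equal effects, and 6 and 7 genes fall outside the axes. Mylpf and Eno3 lie far to the right near 0 on the vertical axis, and the ribosomal protein genes move up towards 0 when the library is left out.

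No gene outside the catalogue of striated muscle genes passed. The catalogue had 54 genes tested, of which 44 had a negative interaction (50% of all genes), with a median of -0.81. An unadjusted p under 0.05 was reached by 16 of them (4.64% of all genes). Of the 54, 5 met the level rule at PND21 through GLLP alone, so the sign of these 5 supports nothing. The same holds for 1 that met it at PND540 through CTR alone and 2 through GLLP alone. Over the 53 catalogue genes also tested without CTR PND540 replicate 5, the median was -0.78 with that library and -0.54 without it. Without the catalogue genes in the fit, 0 of 11388 genes passed and 519 (4.56%) had an unadjusted p under 0.05; the smallest adjusted p among genes outside the catalogue was 0.707 in the full fit. The genes and pathways outside muscle are therefore described by their values, and none of their differences is a call. With 36 lists described, 1 (skeletal muscle) held a called gene.

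Ribosomal protein genes, which build the cytosolic ribosome, had interactions of one sign throughout. All 58 tested members (of 76 listed, 71 in both tables) had a negative interaction, against 50% of all genes, and 50 had an unadjusted p under 0.05 in that direction, against 3.18% of all genes. None was called. The median interaction was -1.06. At PND21 the median diet effect was 0.49, positive in 58 of 58, with GLLP above CTR without overlap in 51 (9.7% of all genes). At PND540 the median was -0.55, negative in 57 of 58 (48.3% of all genes), and no member separated the groups.

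The PND540 side of this pattern followed 1 library. Without CTR PND540 replicate 5 the median diet effect at PND540 was -0.09 and the median interaction -0.60. The interaction was then negative in 58 of 58 (47.2% of all genes). An unadjusted p under 0.05 was reached by 50, all negative (2.94% of all genes). The list score averages the log2 CPM of the members in 1 library and sets the CTR mean of that age to 0. For ribosomal proteins the score was -0.01, 0.08, -0.01 and -0.05 in CTR and 0.23, 0.48 and 0.73 in GLLP at PND21. At PND540 it was -0.11, -0.46, -0.26, -0.33 and 1.17 in CTR, the last being replicate 5, and -0.34, -0.23, -0.46 and -0.50 in GLLP. The 3 GLLP libraries were above the CTR libraries at PND21, and the groups at PND540 overlapped with and without replicate 5.

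Rpl3, a core protein of the large subunit, measured 763 to 834 CPM in CTR and 1005, 1178 and 1314 CPM in GLLP at PND21. At PND540 Rpl3 measured 1078, 940, 1033, 1050 and 1711 CPM in CTR and 1002, 1134, 865 and 867 CPM in GLLP. Its interaction was -0.82 (SE 0.27, unadjusted p = 0.00915), and -0.64 without replicate 5. Rps23 of the small subunit had an interaction of -0.80 (SE 0.27, unadjusted p = 0.00969). Ribosomal protein genes have many near-identical pseudogenes, so their counts are uncertain where reads could be split. Rps18 averaged 1.23 CPM in CTR at PND21 and 844 CPM at PND540, and the cause of this was not tested. Of the 58, 2 were at least 10 times higher in CTR at PND540 than at PND21, Rps18 and Rpl13a.

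**Figure D3:**
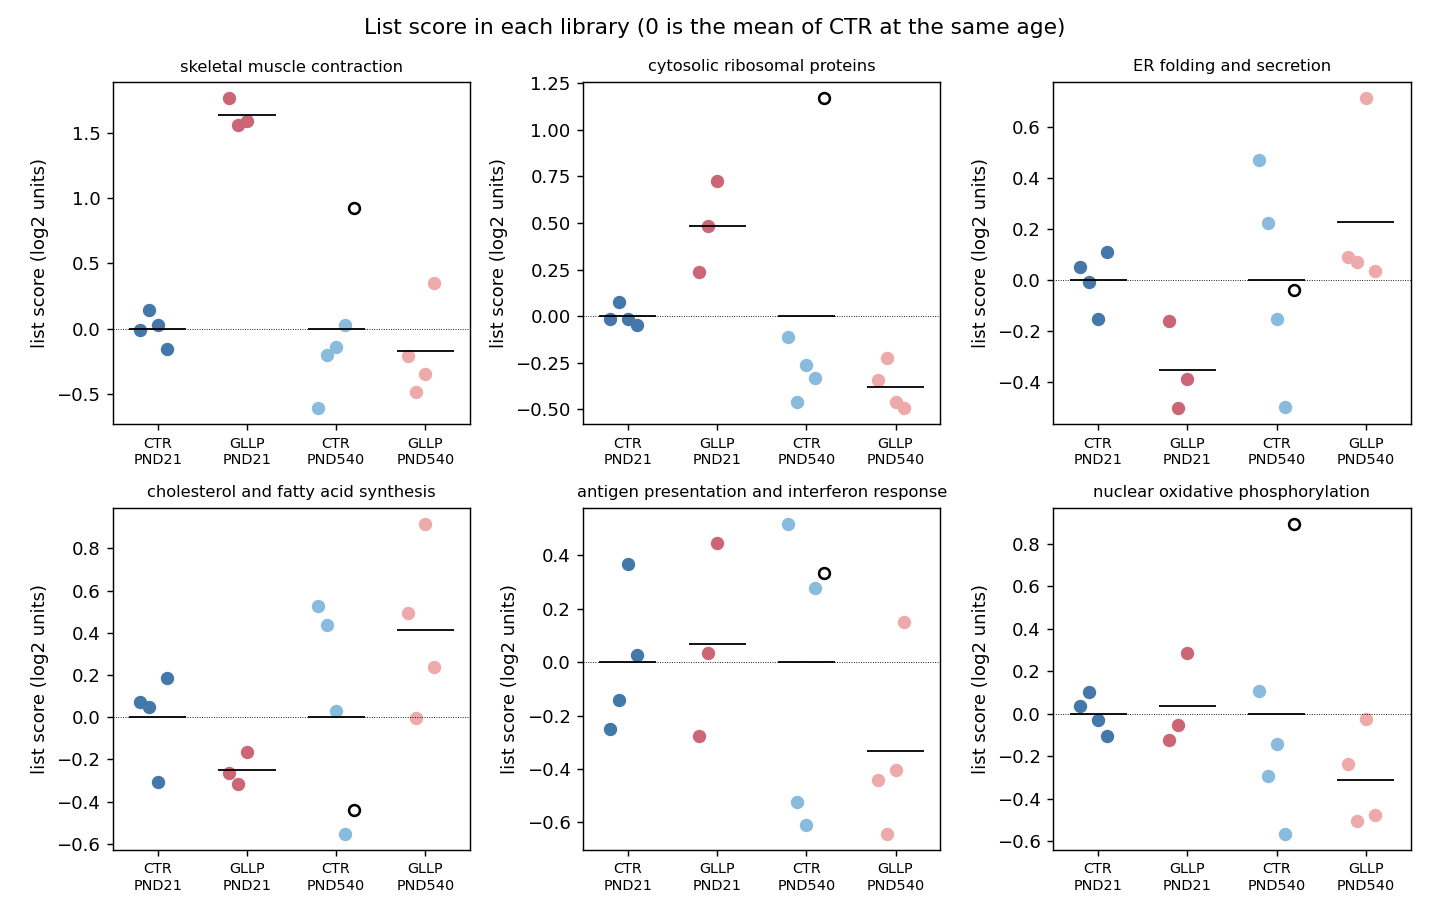
List score (mean log2 CPM of the members, 0 being the mean of CTR at the same age) of 6 gene lists in each library, by diet and age; bars are group means and the open circle is CTR PND540 replicate 5. The score of ribosomal proteins was 1.17 in that library and between -0.50 and -0.11 in every other PND540 library.

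Genes of ER folding and secretion, which fold secretory proteins and clear misfolded ones, had values in the opposite direction. Of 40 tested members (42 listed), 36 had a positive interaction, against 50% of all genes, with a median of 0.47. An unadjusted p under 0.05 was reached by 5, all positive (1.46% of all genes), and none was called. The diet effect at PND21 was negative in all 40 (51.8% of all genes), with a median of -0.34 and GLLP below CTR without overlap in 13 (7.8% of all genes). At PND540 it was positive in 29 of 40 (51.7% of all genes), with a median of 0.14. Without CTR PND540 replicate 5 the interaction was positive in 39 of 40 (52.8% of all genes), with a median of 0.52. The lowest median with 1 library left out was 0.26, without GLLP PND540 replicate 3.

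Dnajb9, a co-chaperone of the ER chaperone BiP that is induced by ER stress, measured 153, 124, 106 and 132 CPM in CTR and 97.9, 52.2 and 47.5 CPM in GLLP at PND21. At PND540 Dnajb9 measured 114, 121, 71.2, 72.9 and 54.1 CPM in CTR and 83.2, 139, 176 and 134 CPM in GLLP. All GLLP libraries were below CTR at PND21, and the groups overlapped at PND540, where 3 of 4 GLLP libraries were above every CTR library. Its interaction was 1.59 (SE 0.43, unadjusted p = 0.0021, edgeR adjusted p = 0.707). Edem1, which directs misfolded glycoproteins to degradation, had an interaction of 1.19 (SE 0.42), and Sel1l, the adaptor of the ubiquitin ligase that removes them from the ER, one of 1.29 (SE 0.50). Sel1l measured 677 CPM in GLLP PND540 replicate 3 and 264 to 284 CPM in the other GLLP libraries of that age, against 95.3 to 277 CPM in CTR.

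Genes of cholesterol and fatty acid synthesis had the same pattern of signs. Of 34 tested members (36 listed), 30 had a positive interaction (50% of all genes). Their median was 0.58, and 0.64 without CTR PND540 replicate 5. The median was 0.35 without CTR PND540 replicate 4 and 0.35 without GLLP PND540 replicate 3. The diet effect was negative in 29 of 34 at PND21 and positive in 30 of 34 at PND540 (51.8% and 51.7% of all genes). The medians were -0.27 and 0.33. An unadjusted p under 0.05 was reached by 3, all positive (1.46% of all genes). Insig1, which holds the sterol sensor in the ER, was at 1.58 (SE 0.66). Msmo1, a sterol demethylating oxidase, was at 1.23 (SE 0.55), and Sc5d, a sterol desaturase, at 0.94 (SE 0.43). Insig1 measured 613, 482, 268 and 630 CPM in CTR and 294, 271 and 224 CPM in GLLP at PND21. At PND540 Insig1 measured 841, 459, 317, 198 and 165 CPM in CTR and 624, 423, 1040 and 411 CPM in GLLP. The groups overlapped at both ages.

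Luminal epithelial markers also separated the diets at PND21. The 5 markers summed to 26769 to 33452 CPM in CTR and 15776 to 22450 CPM in GLLP, with no overlap, and none was at 0. At PND540 they summed to 12669 to 59019 CPM in CTR and 10758 to 53396 CPM in GLLP. Their part in the values of the ER and cholesterol lists was not tested. The wider luminal list had a median interaction of -0.01, with 10 positive and 12 negative of 22 tested (50% of all genes for each sign). Ventral prostate secretory proteins had a median of 0.09 over 10 tested genes, with values from -3.27 to 2.29, and androgen response genes a median of 0.02 over 28. These 3 medians were 0.05, -0.07 and 0.10 without CTR PND540 replicate 5, and that of the secretory proteins ran from -0.24 to 0.62 with 1 library left out.

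Antigen presentation and interferon response genes had a median interaction of -0.28 over 39 tested members, with 26 negative (50% of all genes). Of these, 10 had an unadjusted p under 0.05, all negative (3.18% of all genes), and none was called. Of the 39, 1 met the level rule at PND540 through CTR alone, so its sign supports nothing. Without CTR PND540 replicate 5 the median was -0.22. In that fit 7 members had an unadjusted p under 0.05, all negative (2.94% of all genes). Leaving out other single libraries gave -0.46 without CTR PND21 replicate 3 and -0.18 without CTR PND540 replicate 1. RT1-Bb, a class II histocompatibility chain that presents peptides to helper T cells, measured 10.4, 16.1, 16.6 and 8.83 CPM in CTR and 19, 20.2 and 116 CPM in GLLP at PND21. At PND540 RT1-Bb measured 103, 44.0, 24.2, 84.6 and 226 CPM in CTR and 23.4, 52.5, 39.4 and 84.0 CPM in GLLP. The PND21 difference was carried mostly by GLLP replicate 4, and the PND540 groups overlapped. Its interaction was -2.95 (SE 0.96, unadjusted p = 0.00783), Psmb9 of the immunoproteasome had -1.99 (SE 0.69), and RT1-Db1, another class II chain, -1.87 (SE 0.65). RT1 genes belong to a multigene family, and their values are uncertain where the counting could split reads between members.

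Macrophage and other myeloid genes had a median interaction of -0.49 over 26 tested members, with 19 negative (50% of all genes). Of the 26, 5 had an unadjusted p under 0.05, all negative (3.18% of all genes). Without CTR PND540 replicate 5 the median was -0.53, with 0 such genes (2.94% of all genes). It was -0.28 without GLLP PND540 replicate 3 and -0.75 without GLLP PND540 replicate 4. Aif1, a calcium-binding protein of macrophages, measured 3.33 to 5.29 CPM in CTR and 5.08 to 6.89 CPM in GLLP at PND21, and 18.8, 8.47, 6.12, 20.7 and 58.8 CPM in CTR and 7.92, 10.4, 7.0 and 13.1 CPM in GLLP at PND540. The highest PND540 value of Aif1 was again that of replicate 5. The 2 macrophage markers summed to 17.9 to 30.1 CPM in CTR and 27.8 to 33.2 CPM in GLLP at PND21, and to 35.4 to 203 CPM and 35.1 to 66.2 CPM at PND540. T and B cell genes had 7 tested of 36 listed and a median of -0.72. Of these 7, 2 met the level rule at PND21 through GLLP alone, so their sign supports nothing. Of the listed complement genes, 13 of 16 had a positive interaction (50% of all genes), with a median of 0.35. The median was 0.14 without CTR PND540 replicate 1 and 0.18 without GLLP PND540 replicate 1. C4b, a component of the classical pathway, had an interaction of 1.72 (SE 0.73, unadjusted p = 0.0319 by edgeR). Cfp of the same list had -1.11 (unadjusted p = 0.0495 by edgeR), and -0.67 without CTR PND540 replicate 5. The complement genes C1qa, C1qb and C1qc, outside this list, had -1.25, -1.245 and -0.87. Without CTR PND540 replicate 5 they had -0.544, -0.597 and -0.522.

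Basal epithelial genes had a negative interaction in 11 of 14 tested members (50% of all genes). Their median was -0.78 (-0.51 without CTR PND540 replicate 5). An unadjusted p under 0.05 was reached by 4, all negative (3.18% of all genes). Krt5, a keratin of basal cells, measured 37.8, 46.0, 47.5 and 31.3 CPM in CTR and 46.2, 81.5 and 96.7 CPM in GLLP at PND21. At PND540 Krt5 measured 45.2, 68.4, 84.0, 83.6 and 174 CPM in CTR and 73.3, 76.2, 47.6 and 69.1 CPM in GLLP. The groups overlapped at both ages. Its interaction was -1.33 (SE 0.49, unadjusted p = 0.0152), and -0.96 without replicate 5. The 3 basal markers summed to 266 to 708 CPM in CTR and 474 to 1178 CPM in GLLP at PND21 and to 150 to 1174 CPM and 197 to 402 CPM at PND540.

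Urothelial genes had a negative interaction in all 6 tested members (50% of all genes), with a median of -1.92. Of the 6, 3 met the level rule at PND21 through GLLP alone, so their sign supports nothing. At PND540, 1 of the 6 met it through CTR alone, which also favours a negative value. Without CTR PND540 replicate 5 the uroplakin gene Upk2 was no longer tested, and the median of the other 5 was -0.66, against -1.21 for the same 5 with all libraries. The median was -0.88 without GLLP PND21 replicate 4, -1.22 without CTR PND540 replicate 4 and -3.37 without GLLP PND540 replicate 4. Krt4, a keratin of wet stratified and urinary epithelia, measured 4.55, 0.79 and 14.6 CPM in GLLP at PND21 against 0.147 to 1.17 CPM in CTR, and 0.823, 0.748, 1.39 and 10.3 CPM in GLLP at PND540 against 1.82 to 4.13 CPM in CTR. Single libraries of each age thus held most of the signal. The 4 urothelial markers summed to 8.63 to 40.8 CPM in GLLP and 9.15 to 11.1 CPM in CTR at PND21, and the part of urinary tract tissue in these values was not tested.

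Nuclear genes of oxidative phosphorylation had a negative interaction in 38 of 42 tested members (50% of all genes), with a median of -0.58. However, none had an unadjusted p under 0.05, and the median was -0.14 without CTR PND540 replicate 5. Immediate-early genes, which respond to handling and stimulation within minutes, had a median of -0.52. It became -0.10 without CTR PND540 replicate 5 and -0.34 without GLLP PND21 replicate 4. At PND540, 1 member met the level rule through CTR alone and 1 through GLLP alone, so their sign supports nothing. Erythroid and platelet genes had a median of -1.04 over 5 members, and -0.68 without GLLP PND21 replicate 4. Of these 5, 1 met the level rule at PND540 through CTR alone, so its sign supports nothing. Over the 4 members also tested without CTR PND540 replicate 5 the median was -1.11 with that library and -0.18 without it. In Ndufs7, a subunit of complex I, replicate 5 measured 365 CPM and the other CTR PND540 libraries 57.8 to 79.7 CPM, against 56.4 to 72.3 CPM in GLLP. The list score of oxidative phosphorylation in replicate 5 was 0.90, and -0.57 to 0.11 in the other CTR libraries of that age.

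**Figure D4:**
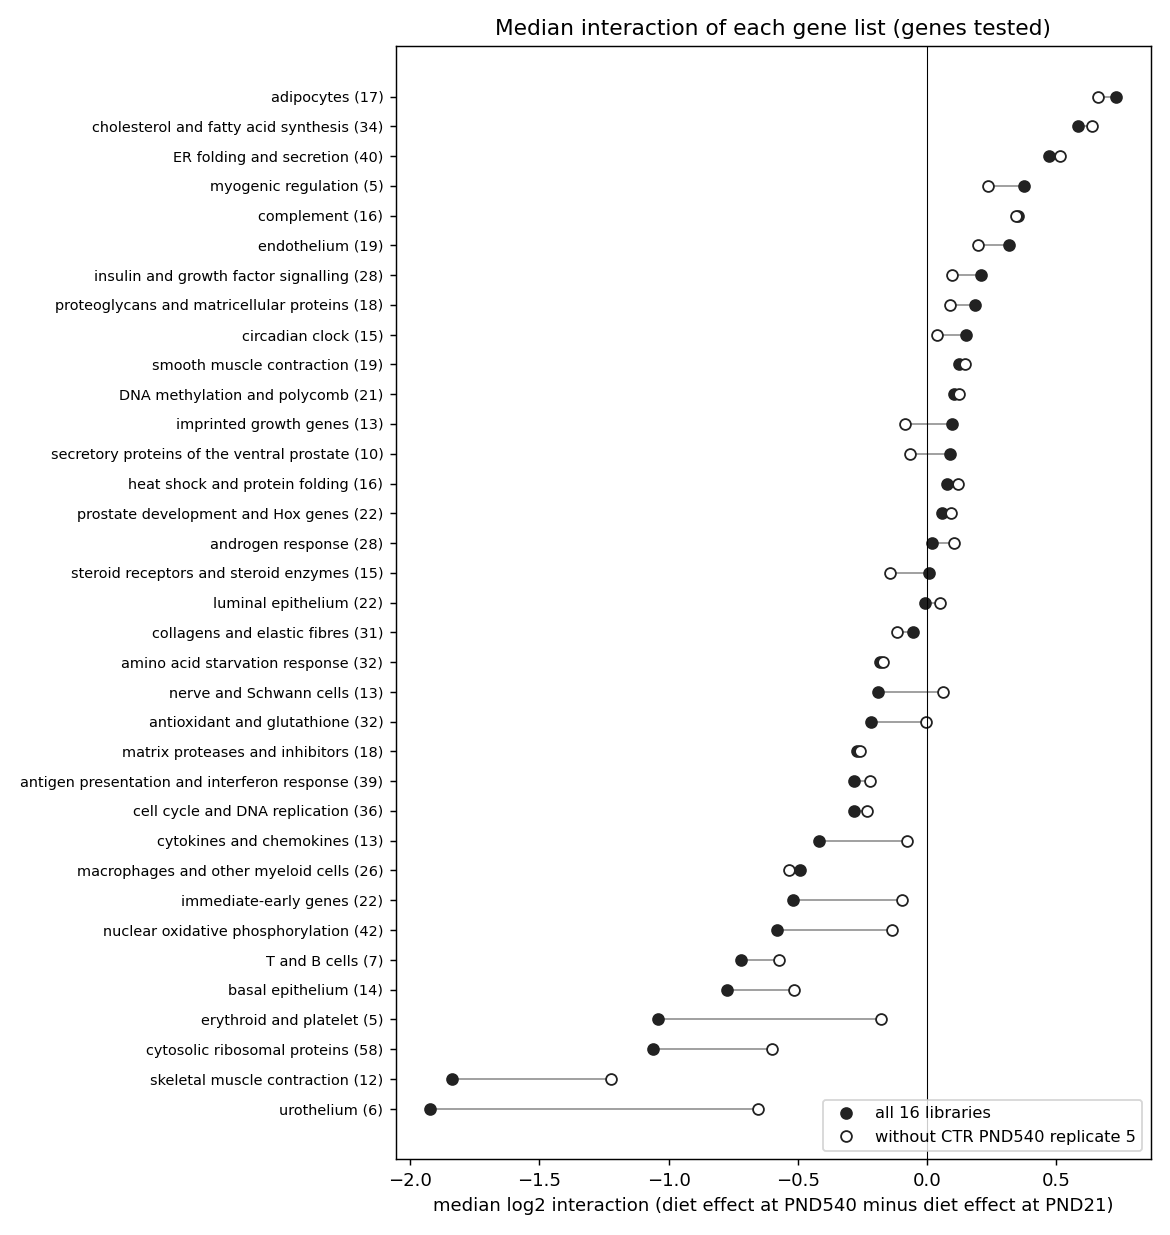
Median log2 interaction of the 35 gene lists with at least 5 genes tested (number tested in brackets), with all libraries (filled) and without CTR PND540 replicate 5 (open). Skeletal muscle, ribosomal proteins and oxidative phosphorylation move towards 0 when the library is left out, the urothelial, erythroid and cytokine lists then also have 1 gene fewer, and the ER and cholesterol lists stay at 0.47 to 0.64.

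Adipocyte genes had a positive interaction in 13 of 17 tested members (50% of all genes), with no unadjusted p under 0.05 (4.64% of all genes). Of the 17, 1 met the level rule at PND21 through CTR alone, so its sign supports nothing. The median interaction of the 17 was 0.73. Single libraries moved it: it was 0.31 without GLLP PND540 replicate 4, 0.43 to 0.48 without CTR PND21 replicate 4, GLLP PND21 replicate 2, CTR PND540 replicate 1 or GLLP PND540 replicate 1, and 1.28 without CTR PND540 replicate 2. The spread was wide: the 2 adipocyte markers summed to 3.81 to 28 CPM in CTR and 1.22 to 17.3 CPM in GLLP at PND21, and to 0.775 to 96.4 CPM in CTR and 31.7 to 97.8 CPM in GLLP at PND540. Several lists had medians near 0. Collagens and elastic fibres had -0.05 over 31 members. Their diet effect was positive in 29 of 31 at PND21 and 26 of 31 at PND540 (48.2% and 51.7% of all genes). Insulin and growth factor signalling had 0.21 over 28, the amino acid starvation response -0.18 over 32, and imprinted growth genes 0.10 over 13. With 1 library left out these 4 medians ran from -0.31 to 0.20, 0.04 to 0.40, -0.36 to 0.001 and -0.19 to 0.12. Without CTR PND540 replicate 5 collagens and elastic fibres were at -0.12, insulin signalling at 0.10 and imprinted genes at -0.09. Cdkn1c, an imprinted inhibitor of the cell cycle, had an interaction of -1.29 (SE 0.50, unadjusted p = 0.0199) and measured 8.79 to 11.1 CPM in CTR and 15.2, 21.1 and 24.0 CPM in GLLP at PND21, with overlapping groups of 3.09 to 9.95 CPM and 2.62 to 6.27 CPM at PND540. Of the 35 lists, 30 kept the sign of their median without CTR PND540 replicate 5. The sign of the skeletal muscle, ribosomal, ER and cholesterol medians was the same in all 28 alternatives run. That is not particular to these lists: it also held for others, among them the basal, urothelial, adipocyte and oxidative phosphorylation lists.

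Single genes outside muscle with the smallest p are given with their values, since none passed (edgeR adjusted p = 0.707 for each). Cdca7, a regulator of DNA methylation in dividing cells, measured 6.34, 11.1, 8.56 and 9.38 CPM in CTR and 15.8, 13.3 and 15.9 CPM in GLLP at PND21. At PND540 Cdca7 measured 2.04, 1.11, 1.68, 2.35 and 2.17 CPM in CTR and 0.887, 1.53, 1.01 and 1.18 CPM in GLLP. Its interaction was -1.46 (SE 0.37), with GLLP above CTR at PND21 and overlapping groups at PND540. Cbx2, a chromodomain subunit of a Polycomb repressive complex, had an interaction of 1.90 (SE 0.49). It measured 81.7, 61.7, 28.4 and 61.7 CPM in CTR and 27.5, 13.1 and 9.47 CPM in GLLP at PND21, and 59.7 to 96.9 CPM in CTR and 67.3 to 112 CPM in GLLP at PND540. The GLLP libraries were lower at PND21, by a narrow margin against CTR replicate 3, and at PND540 the groups overlapped.

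The tetraspanin gene Tspan6 measured 13.1 to 17.7 CPM in CTR and 19.2 to 23.1 CPM in GLLP at PND21, and 8.73 to 10.7 CPM and 6.99 to 9.18 CPM at PND540, with an interaction of -0.87 (SE 0.23). Wnt4, a secreted ligand of the Wnt family, measured 7.48 to 9.7 CPM in CTR and 11.9, 17.1 and 22.4 CPM in GLLP at PND21, and 2.79 to 5.9 CPM and 1.93 to 4.69 CPM at PND540, with an interaction of -1.51 (SE 0.44). Both had GLLP above CTR without overlap at PND21 and overlapping groups at PND540. In the other direction Bnip3, a receptor for removal of mitochondria, measured 57.1 to 67.2 CPM in CTR and 34.7, 43.1 and 46.2 CPM in GLLP at PND21, and 53.3 to 104 CPM and 83.5 to 125 CPM at PND540, with an interaction of 0.97 (SE 0.28). The receptor gene Gpr146 had an interaction of 1.05 (SE 0.31), Col11a2, a fibrillar collagen chain, -1.35 (SE 0.41) and Lrp3, of the low density lipoprotein receptor family, -1.26 (SE 0.38). Tex11, a meiotic gene, had 20.2 to 29.2 CPM in CTR and 0, 10.3 and 0 CPM in GLLP at PND21, and 0 CPM in 3 of the 5 CTR libraries and 27.3, 0, 0.126 and 27.4 CPM in GLLP at PND540, so its diet effect at PND540 has no interpretable fold.

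Without CTR PND540 replicate 5 the smallest adjusted p outside muscle was that of Krt80, an epithelial keratin (adjusted p = 0.203 by edgeR). Krt80 measured 46.7, 29.7, 32.9 and 29.8 CPM in CTR and 16.6, 7.86 and 11.6 CPM in GLLP at PND21. At PND540 it measured 73.5, 83.4, 74.3, 87.9 and 6.16 CPM in CTR, the last in replicate 5, and 89.5, 95.2, 80.9 and 76.9 CPM in GLLP. The interaction of Krt80 was 1.93 (SE 0.74) with that library and 1.64 (SE 0.29) without it. Cast, the calpain inhibitor calpastatin, gave 1.17 (SE 0.46) with it and 0.94 (SE 0.21) without, the kinase gene Dyrk3 1.56 and 1.33, the aminoacylase gene Acy1 -1.86 and -1.21, and Lrwd1, a partner of the origin recognition complex, -1.23 and -0.82. In each of the 5 the interaction was smaller in size and its error lower without the library, and none passed.

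The groups were separate at both ages, in opposite directions, in 6 genes (0.0524% of those tested), and in the same direction in none; with CTR PND540 replicate 5 left out the counts were 7 (0.0612%) and 3 (0.0262%). Apart from Mylpf, these were chosen after their values were seen. In Dmwd, Fdxr and Telo2 the GLLP libraries were above CTR at PND21 and below CTR at PND540. Fdxr, the reductase that feeds electrons to mitochondrial cytochromes P450, measured 4.99 to 6.09 CPM against 6.16 to 6.92 CPM at PND21, and 4.79 to 19.2 CPM against 3.69 to 4.58 CPM at PND540. Telo2, a cofactor in the assembly of large kinases, measured 26.7 to 29.1 CPM against 29.5 to 31.6 CPM, and then 19.8 to 47.1 CPM against 18.4 to 19.4 CPM. Stard13 measured 36.2 to 41.4 CPM in CTR against 30.6 to 35.7 CPM in GLLP at PND21, and 9.75 to 39.9 CPM against 40.3 to 46.2 CPM at PND540; Gramd1c, a sterol transfer protein, had the same order. Their interactions were -0.75 for Dmwd, -1.15 for Fdxr, -0.62 for Telo2, 0.75 for Stard13 and 0.92 for Gramd1c, none past the threshold. With CTR PND540 replicate 5 left out, Fdxr was at -0.52, Telo2 at -0.29 and Gramd1c at 0.60, and Dmwd and Stard13 moved by less than 1.5 times. None of the 5 turned its sign, and the margins between groups were small except in Mylpf at PND21.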

How the data were processed

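Whole-gland RNA of 16 rat ventral prostates was extracted with Trizol and sequenced from standard Illumina libraries, per the labels' protocols. For each age the authors deposited 1 table of unnormalized read counts by gene. The submitters' processing notes list STAR, edgeR 3.34.0 and the build Rnor_6.0 but give none a role. Which tool counted the reads, on which annotation and strand, is not given in the sources used here, so overlapping and antisense genes cannot be told apart. At PND21, 25 entries had date-like names and 4 shared their name, and these were left out. No 2 replicates agreed within sampling noise (chi-square per degree of freedom 29.7 to 961), so none was treated as a duplicate.

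For the interaction, edgeR 4.0.16 (R 4.3.3) was run on 16 libraries: 4 group means, TMM scaling on full library totals, robust quasi-likelihood fit, two-sided quasi-likelihood tests, Benjamini-Hochberg adjustment over all 11442 genes, threshold 0.05, 12 residual degrees of freedom. CPM used TMM-scaled totals. The diet effect at each age came from the same fit, which shares 1 spread estimate between ages. The biological coefficient of variation was 17.3% for PND21 libraries alone and 41.8% for PND540 libraries alone (29.6% without CTR replicate 5), so a PND21 diet effect is tested here with more spread than its own libraries show. List scores used a prior count of 2. The script was tested on simulated data. The contrast, the 36 gene lists, the catalogue of striated muscle genes and the rule for naming genes were chosen with earlier results of these data known. The rule took, among symbols of at least 5 CPM in the highest group, the called genes with the largest changes and smallest p, the smallest p outside the catalogue with and without CTR PND540 replicate 5 (the 5 smallest per direction where none passed), and the 3 smallest p of each list; not all of these are printed. Alternatives were RLE, plain library size, TMM within each table, DESeq2 1.42.0, limma voom (limma 3.58.1) with weights per group, a non-robust fit, 3 other filters, fits without striated or mitochondrial genes, a replicate block, and leaving out each library. Figures were drawn with matplotlib 3.10.9.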

Additional observations from a re-analysis of the deposited data

Results flagged for a closer look

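The interactions of Mylpf (-4.72) and Eno3 (-2.56) are listed because the test of the difference between ages passed its threshold.

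The other values are single libraries lying far from the rest of their group by Dixon's test, which chance flags in about 1 of 20 groups. Here 19 of 162 groups tested (11.7%) held one. The genes had been named by their p, so this share is not comparable with that rate. CTR PND540 replicate 5 accounts for most of the flags. In it Acy1 88.1 CPM, Lrwd1 46.6 CPM, Mylpf 10.6 CPM and Rpl23 1136 CPM were the highest of their group. Cast 45.1 CPM, Dyrk3 6.6 CPM and Krt80 6.16 CPM were the lowest. All of these genes except Mylpf were named from the fit without CTR PND540 replicate 5, so their flags in that library support nothing. The list scores of CTR PND540 replicate 5 were 1.17 for cytosolic ribosomal proteins and 1.73 for erythroid and platelet genes, the highest of the group. They were -1.29 for myogenic regulation and -0.857 for androgen response, the lowest.

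In the other CTR PND540 libraries, Tex11 measured 0.53 CPM in replicate 4, Tspan6 8.73 CPM in replicate 2, and the nerve and Schwann cell score was -0.58 in replicate 1. In CTR PND21, Col11a2 measured 12.5 CPM in replicate 2 and Gpr146 83.9 CPM in replicate 1. In GLLP PND540, Acy1 measured 13.9 CPM in replicate 3, Dyrk3 23 CPM in replicate 4, and the score of ER folding and secretion was 0.714 in replicate 3. Within that ER list the interaction keeps a positive median without any single library (0.26 to 0.57).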

How the results depend on the processing

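No gene had a higher diet effect at PND540 under any of 28 alternatives. The count with a lower effect was 2 with RLE, plain library size, TMM within each table, limma voom and the non-robust fit, 3 with DESeq2, 13 with filterByExpr, 14 with no filter, 0 without striated muscle genes, and 1 to 3 when 1 library was left out. Genes differing between diets at PND21 in the joint fit numbered 2 in the reported fit, 10 with DESeq2, 112 with limma voom, 41 with filterByExpr, 37 with no filter, 0 without striated muscle genes and 1 to 4 with 1 library left out; at PND540 they numbered 0, and 2 with DESeq2. The cause of these differences was not tested, except that the wider filters test more muscle genes and the fit without them tests none. Mylpf was called in all 27 alternatives that tested it (-4.92 to -4.38, adjusted p at most 0.00402).

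Same-numbered deviations correlated at -0.239, 0.214 and -0.233 at PND21 and -0.187, -0.0589, 0.0555 and 0.362 at PND540. Deviations of different number ran from -0.253 to 0.247 at PND21 and from -0.435 to 0.336 at PND540. So few values cannot tell whether replicate numbers mark pairs, and the main fit used none. With the replicate block 0 genes were higher and 2 lower, Mylpf and Tnnt3, and Eno3 was at -2.31 (adjusted p = 0.0531). Neither called gene changed direction; of 35 list medians, 30 kept their sign without CTR PND540 replicate 5. The spread at PND540 limits what can be seen there: the median SE of the interaction was 0.408, and 0.262 without CTR PND540 replicate 5.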
